A study of Mus musculus with 18 samples.

Results

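The IkB family proteins are the inhibitors and nuclear partners of NF-kB, and the 6 genes described here are Nfkbia, Nfkbib, Nfkbie, Nfkbid, Nfkbiz and Bcl3. They were taken by gene symbol from the platform annotation of the arrays, and all 6 were among the 9973 genes tested. RNA came from bone marrow-derived basophils of C57BL/6J mice aged 4 to 6 weeks, granulocytes of type 2 immunity that were grown from marrow in culture. The cells were ST2KO or wild type (WT), and each genotype was stimulated with IL-33 for 4 h, activated through IgE for 4 h, or left unstimulated. Each of the 6 groups held 3 Illumina bead arrays, 18 in all. ST2 is the receptor for IL-33. The promoter or targeting of the knockout, the IL-33 dose and the agent that engaged IgE are not given in the sources used here, and the labels do not say whether replicates were separate cultures or mice, so each p-value reflects the spread among arrays, which may be technical.

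NF-kB dimers are held in the cytoplasm by the classical inhibitors IkB-alpha, IkB-beta and IkB-epsilon, the products of Nfkbia, Nfkbib and Nfkbie. Signals that activate the IKK kinases lead to phosphorylation and breakdown of these inhibitors, which frees the dimers to enter the nucleus, and Nfkbia is itself a target gene that restores the brake. The atypical members IkB-NS (Nfkbid), IkB-zeta (Nfkbiz) and Bcl-3 (Bcl3) act in the nucleus on NF-kB bound to DNA, where they can help or hinder transcription of particular targets. In basophils, IL-33 signals through ST2 and the adaptor MyD88, and IgE signals through the high-affinity receptor FcεRI, which also raises calcium.

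The promoter windows of the members were read from RefSeq on the mouse build GRCm38.p6, from 250 bases before to 50 bases after the annotated transcription start, and searched on both strands for the NF-kB consensus of 10 bases. A window was found for 5 of the 6 members, all but Nfkbiz. All 6 members rose after both stimuli in WT cells, as given below, Nfkbib without a match and Nfkbiz without a window included. The 4 windows that held a match are printed to show the letters that NF-kB dimers are known to bind. They are written 5′ to 3′ on the strand of the gene, in lower case with each match in capitals.
Nfkbia, chr12:55492598-55492897, minus strand: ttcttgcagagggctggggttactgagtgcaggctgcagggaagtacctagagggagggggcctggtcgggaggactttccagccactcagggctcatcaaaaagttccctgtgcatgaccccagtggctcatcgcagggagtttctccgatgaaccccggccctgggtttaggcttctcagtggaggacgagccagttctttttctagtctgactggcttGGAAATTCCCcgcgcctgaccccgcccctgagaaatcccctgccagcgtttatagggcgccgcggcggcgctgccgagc
Nfkbie, chr17:45555450-45555749, plus strand: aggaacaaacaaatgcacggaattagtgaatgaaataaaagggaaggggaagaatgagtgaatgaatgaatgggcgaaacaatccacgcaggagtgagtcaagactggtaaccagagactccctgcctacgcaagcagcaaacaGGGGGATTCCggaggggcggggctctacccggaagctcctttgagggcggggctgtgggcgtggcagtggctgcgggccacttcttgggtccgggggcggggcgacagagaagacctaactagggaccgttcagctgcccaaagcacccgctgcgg
Nfkbid, second annotated start, chr7:30422156-30422455, plus strand: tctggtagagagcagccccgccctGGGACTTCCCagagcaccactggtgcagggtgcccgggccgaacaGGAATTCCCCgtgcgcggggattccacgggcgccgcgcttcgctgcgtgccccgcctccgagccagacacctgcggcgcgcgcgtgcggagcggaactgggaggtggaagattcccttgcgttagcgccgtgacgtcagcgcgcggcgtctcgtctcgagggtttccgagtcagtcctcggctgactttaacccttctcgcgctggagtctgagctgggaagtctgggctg
Bcl3, chr7:19822706-19823005, minus strand: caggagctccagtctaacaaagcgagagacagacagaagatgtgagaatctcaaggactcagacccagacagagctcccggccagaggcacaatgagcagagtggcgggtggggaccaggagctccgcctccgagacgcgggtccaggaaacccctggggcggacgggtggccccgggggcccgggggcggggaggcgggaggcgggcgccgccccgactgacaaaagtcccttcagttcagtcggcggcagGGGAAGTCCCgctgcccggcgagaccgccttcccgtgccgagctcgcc

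The Nfkbia window held 1 match, at -29 to -20 from the start on the strand opposite to the gene. The Nfkbie window held 1 match, at -106 to -97 on the strand of the gene. Nfkbid has 3 annotated starts, and the window of the second held 2 matches, at -226 to -217 on the strand of the gene and at -181 to -172 on the opposite strand. The Bcl3 window held 1 match just inside the transcript, at 3 to 12 after the start on the opposite strand. That annotated start lies within the Bcl3 gene bounds given below, not at their outer end. The Nfkbib window and the windows of the other Nfkbid starts held no match, which says only that these letters are not in those windows. For comparison, 4.53% of all 32544 windows in the table and 5.17% of the 26742 genes held a match. A match is a description of letters, and binding was not measured.

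**Figure D1:**
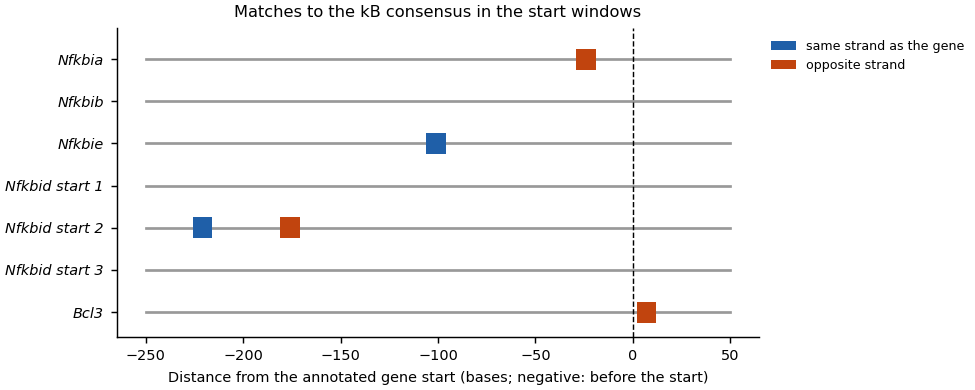
Promoter windows of the members, drawn by distance from the annotated transcription start in bases, with each match to the NF-kB consensus marked on its strand. Nfkbia, Nfkbie, the second Nfkbid start and Bcl3 hold matches; the single Nfkbib window and the other Nfkbid windows hold none, and Nfkbiz has no window.

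Of 45281 probes on the array, between 32.2% and 34.8% were above background per array (detection p-value under 0.05). Replicate arrays correlated at 0.981 to 0.994 across the genes tested. No probe carried the symbol of the ST2 gene Il1rl1, so the knockout itself could not be verified in these data. The basophil markers Mcpt8, Fcer1a, Prss34, Ms4a2, Cd200r3, Il3ra and Gata2 were above background on 18 of 18 arrays. Itga2, also listed as a basophil marker, was above background on 4. Of 7 mast cell markers 5, Tpsb2, Cpa3, Tpsab1, Cma1 and Kit, were also above background on 18 of 18 arrays, whereas Mcpt4 was above background on 4 arrays and Mrgprb2 on 6. Detection alone therefore does not tell basophils from mast cells here. The macrophage markers Adgre1, Lyz2, Cd14 and Csf1r were above background on 18 of 18 arrays too, Mrc1 on 17 and C1qa on 3. The 4 lymphocyte markers were not among the genes tested, nor were 3 of 4 eosinophil and 3 of 5 dendritic cell markers. Prg2, the eosinophil marker tested, was above background on 18 of 18 arrays. Its level was highest on the second array of each WT group, at 703 without stimulus, 684 after IgE and 1050 after IL-33. Mast cell marker sums were 39759 to 42064 after IgE against 33066 to 37147 without stimulus in ST2KO cells, and 37796 to 43276 against 33178 to 38466 in WT cells. Summed levels of the 6 measured neutrophil markers were uneven: in ST2KO cells they were 3059, 329 and 361 after IL-33, 174, 184 and 192 after IgE, and 298, 472 and 384 without stimulus. In WT cells they were 895, 4984 and 343 after IL-33, 221, 828 and 1359 after IgE, and 952, 4391 and 3100 without stimulus. The second WT arrays without stimulus and after IL-33, and the first ST2KO array after IL-33, were thus the highest of their groups. Summed levels of the 6 measured macrophage markers were 5381 to 6618 in IL-33-stimulated ST2KO cells and 8407 to 9158 in IL-33-stimulated WT cells, and the part of these other cells in the results below was not tested. In such bulk RNA, fewer cells of a type and less RNA per cell cannot be told apart.

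All 6 members were above background on every array of unstimulated WT cells, and all 6 rose in WT cells after either stimulus, beside 3.01% of all genes that rose after IL-33 and 22.7% that rose after IgE. Which stimulus gave the higher RNA level divided them: Nfkbia and Nfkbiz stood higher after IL-33, Nfkbid and Nfkbie stood higher after IgE, and Nfkbib and Bcl3 did not pass the test of IL-33 against IgE. In ST2KO cells 0 of 6 members, and 0% of all genes, passed the test after IL-33, and all 6 rose after IgE, beside 22.8% of all genes. Values below are first the deposited signal of each array, in replicate order, an intensity whose background of roughly 80 units had not been removed. Fold changes are from background-corrected, normalized log2 levels, and each p was adjusted over all genes with the Benjamini-Hochberg method in limma. The ± of a log2 change is its standard error, and a gene passed at an adjusted p under 0.05.

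**Figure D2:**
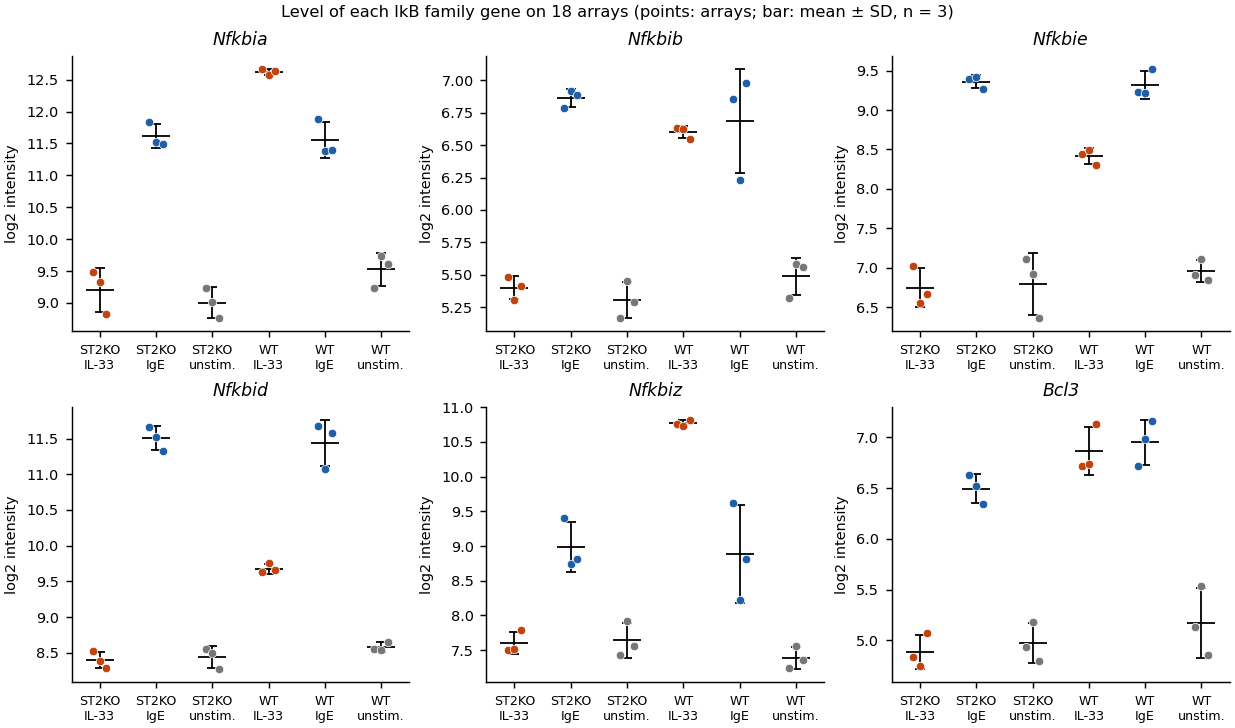
Normalized log2 level of each member on every array (points) with the group mean and SD (bars, n = 3), for ST2KO cells after IL-33, after IgE and unstimulated, then WT cells in the same conditions. For Nfkbia and Nfkbiz the 3 IL-33-stimulated WT arrays lie above all other arrays, and for Nfkbid and Nfkbie the IgE arrays of both genotypes do.

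Nfkbia (chr12:55489409-55492647), which encodes the classical inhibitor IkB-alpha, had 2 probes. Its brighter probe gave signals of 759, 657 and 539 in IL-33-stimulated ST2KO cells, 3906, 3012 and 2872 in IgE-activated ST2KO cells and 694, 643 and 549.5 in unstimulated ST2KO cells. In WT cells the signals were 6699, 5732 and 6698 after IL-33, 3876, 2632 and 2961 after IgE and 814, 943 and 796 without stimulus. The 3 IL-33-stimulated WT arrays were the highest of all 18, the IgE arrays of both genotypes overlapped below them, and the remaining arrays were lowest. Its normalized log2 level averaged 12.62 ± 0.05 after IL-33, 11.56 ± 0.28 after IgE and 9.53 ± 0.26 in unstimulated WT cells (SD, n = 3 each). IL-33 raised Nfkbia 8.56-fold in WT cells (log2 change 3.10 ± 0.19, n = 3 arrays per group, limma adjusted p = 1.01e-08), which placed it 11th among the 9973 genes by size of rise. After IgE the rise in WT cells was 4.08-fold (log2 change 2.03 ± 0.19, adjusted p = 1.20e-07), the 179th largest. The second, dimmer probe gave 658, 709.8 and 789 after IL-33, 484, 332 and 524 after IgE and 188, 202 and 194 in unstimulated WT cells. Its log2 changes in WT cells were 2.61 after IL-33 and 1.76 after IgE, with the same calls as the brighter probe, and the WT groups came in the same order.

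Nfkbib (chr7:28758251-28766644) encodes IkB-beta, a classical inhibitor that is more slowly turned over than IkB-alpha in many cell types. It was among the dim members, with signals of 122, 115 and 123 after IL-33, 192, 199 and 190.2 after IgE and 117, 127 and 123 in unstimulated ST2KO cells. In WT cells the signals were 180.1, 158 and 174 after IL-33, 195, 144 and 206 after IgE and 129.8, 128 and 123 without stimulus. The IgE arrays of both genotypes and the IL-33-stimulated WT arrays lay above the other 9 arrays. Among them the IgE-activated WT arrays overlapped both other groups, and the IgE-activated ST2KO arrays lay above the IL-33-stimulated WT arrays. The mean normalized log2 level was 6.60 ± 0.05 after IL-33, 6.69 ± 0.40 after IgE and 5.49 ± 0.14 in unstimulated WT cells (SD, n = 3 each). The rise in WT cells was 2.17-fold after IL-33 (log2 change 1.11 ± 0.15, adjusted p = 1.37e-04) and 2.3-fold after IgE (1.20 ± 0.15, adjusted p = 4.97e-06). The second IgE-activated WT array was low, with a change of 0.74 log2 units against the mean of unstimulated WT cells, beside 1.37 and 1.49 on the other IgE arrays. Without background correction the Nfkbib changes were 0.51 log2 units after IL-33 and 0.56 after IgE, and both passed.

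Nfkbie (chr17:45555700-45563169), the gene of the third classical inhibitor IkB-epsilon, had 2 probes. The brighter gave 201, 166 and 185 after IL-33, 762, 762 and 669.9 after IgE and 224, 214 and 170.4 in unstimulated ST2KO cells. WT cells gave 432, 383 and 401 after IL-33, 684, 614 and 859 after IgE and 227, 223 and 186 without stimulus. Every IgE array of either genotype exceeded the IL-33-stimulated WT arrays, which in turn exceeded all unstimulated arrays and the IL-33-stimulated ST2KO arrays. On the normalized log2 scale the mean was 8.41 ± 0.10 after IL-33, 9.32 ± 0.18 after IgE and 6.95 ± 0.14 in unstimulated WT cells (SD, n = 3 each). In WT cells Nfkbie rose 2.75-fold after IL-33 (log2 change 1.46 ± 0.17, adjusted p = 2.02e-05) and 5.16-fold after IgE (2.37 ± 0.17, adjusted p = 6.73e-09). The second probe was above background on 13 of 18 arrays, and its log2 changes of 1.11 after IL-33 and 1.89 after IgE in WT cells had the same calls.

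Nfkbid (chr7:30421731-30428749), the first of the atypical members, encodes the nuclear protein IkB-NS. Signals were 427, 382 and 400.1 after IL-33, 3360.1, 2997 and 2616 after IgE and 466, 470.3 and 414 in unstimulated ST2KO cells. In WT cells they were 886, 824 and 899 after IL-33, 3428, 2104 and 3308 after IgE and 535, 462 and 448 without stimulus. The groups followed the same order as for Nfkbie, with the IgE arrays far above the rest. Mean normalized log2 levels were 9.68 ± 0.07 after IL-33, 11.44 ± 0.32 after IgE and 8.58 ± 0.07 in unstimulated WT cells (SD, n = 3 each). Nfkbid had the largest change of the family after IgE, 7.28-fold in WT cells (log2 change 2.86 ± 0.14, adjusted p = 1.50e-10) and 8.35-fold in ST2KO cells (3.06 ± 0.14, adjusted p = 5.92e-11). Its rise after IL-33 in WT cells, 2.15-fold (1.10 ± 0.14, adjusted p = 7.49e-05), was the smallest of the family by estimate, close to that of Nfkbib.

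Nfkbiz (chr16:55811375-55838954) encodes IkB-zeta, an inducible nuclear partner of NF-kB that mouse macrophages need for a set of late inflammatory genes. ST2KO cells gave signals of 250.2, 249.9 and 307 after IL-33, 768, 506 and 506 after IgE and 259, 346 and 287 without stimulus. WT cells gave 1823, 1559 and 1912 after IL-33, 879, 349 and 538 after IgE and 266, 274 and 231 without stimulus. The IL-33-stimulated WT arrays were tightly grouped and above all others, while the IgE-activated WT arrays were widely spread. Normalized log2 levels averaged 10.77 ± 0.05 after IL-33, 8.88 ± 0.70 after IgE and 7.38 ± 0.16 in unstimulated WT cells (SD, n = 3 each). IL-33 raised Nfkbiz 10.4-fold in WT cells (log2 change 3.38 ± 0.25, adjusted p = 1.34e-07), the largest change of the family and the 7th largest rise of all genes. IgE raised it 2.83-fold (1.499 ± 0.25, adjusted p = 1.12e-04), with single arrays at 2.24, 0.83 and 1.43 log2 units above the unstimulated mean.

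Bcl3 (chr7:19808462-19822824) encodes the nuclear IkB protein Bcl-3, which binds homodimers of the p50 and p52 subunits. It was dim, with signals of 106, 102 and 114 after IL-33, 180.5, 170.3 and 157 after IgE and 111, 118 and 110.0 in unstimulated ST2KO cells. WT signals were 186, 165 and 222 after IL-33, 186, 192 and 224 after IgE and 123, 126 and 106 without stimulus. One array was below background in each of the IL-33-stimulated and unstimulated ST2KO groups, and all other arrays were above it. The WT arrays of both stimuli overlapped, and the IgE-activated ST2KO arrays overlapped the IL-33-stimulated WT arrays in signal and lay just under them after normalization. Means on the normalized log2 scale were 6.86 ± 0.24 after IL-33, 6.95 ± 0.22 after IgE and 5.17 ± 0.34 in unstimulated WT cells (SD, n = 3 each). Bcl3 rose 3.23-fold after IL-33 (log2 change 1.69 ± 0.17, adjusted p = 5.94e-06) and 3.43-fold after IgE (1.78 ± 0.17, adjusted p = 2.66e-07) in WT cells. Without background correction these changes were 0.76 and 0.81 log2 units, and both passed.

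As a family, 6 of 6 members rose after IL-33 in WT cells, beside 3.01% of all genes tested, and in each the 3 IL-33 arrays did not overlap the 3 unstimulated arrays, as in 7.77% of genes. The median log2 change of the members was 1.57, against -0.03 for all genes. After IgE 6 of 6 members rose in WT cells, beside 22.7% of all genes, and in all 6 the groups did not overlap, as in 24.6% of genes. Their median log2 change was 1.90, against -0.02 for all genes. Both comparisons use the same 3 unstimulated WT arrays, and 200 genes, 2.01%, rose in both.

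The direct comparison of IL-33 with IgE in WT cells divided the family, as the plot of differences by pathway list shows. Nfkbiz stood 3.69-fold higher after IL-33 than after IgE (log2 difference 1.89 ± 0.25, limma adjusted p = 1.36e-05) and Nfkbia 2.1-fold higher (1.07 ± 0.19, adjusted p = 1.66e-04). Nfkbid was lower after IL-33, at 0.294 of its level after IgE (-1.76 ± 0.14, adjusted p = 4.69e-08), and Nfkbie was at 0.532 of it (-0.91 ± 0.17, adjusted p = 2.95e-04). For these 4 members the 3 IL-33 arrays did not overlap the 3 IgE arrays, as in 49.0% of all genes. Nfkbib differed by -0.09 log2 units (95% interval -0.41 to 0.24, adjusted p = 0.693) and Bcl3 by -0.09 (-0.46 to 0.28, adjusted p = 0.722). The classical and atypical classes were both divided: each had 1 member higher after IL-33, 1 higher after IgE and 1 that did not pass. In this comparison 43.0% of all genes passed, 21.8% higher after IL-33 and 21.2% lower, so passing in itself was common.

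**Figure D3:**
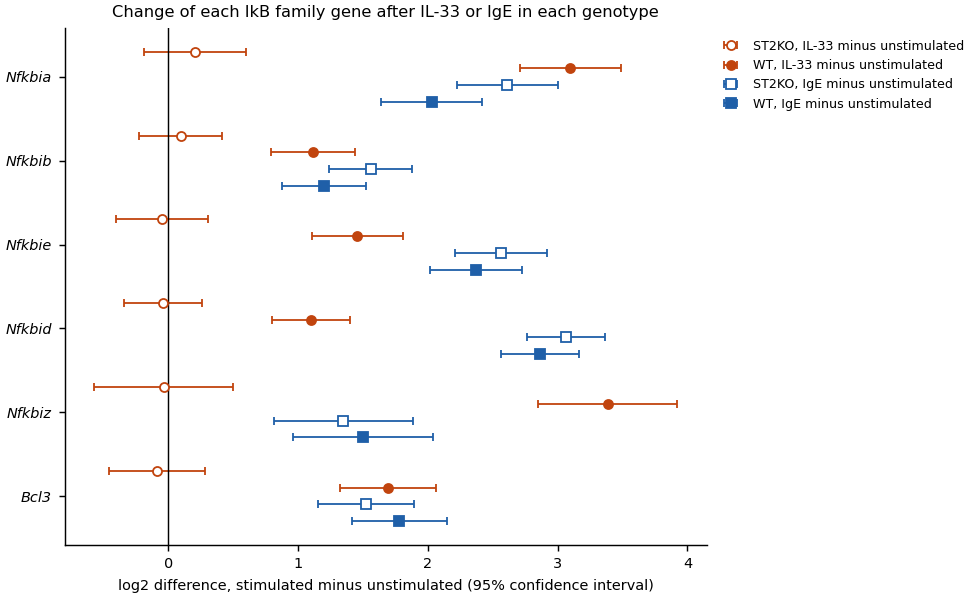
Log2 change of each member with its 95% interval for IL-33 and for IgE against unstimulated cells, in ST2KO and in WT cells. Changes after IL-33 in ST2KO cells all have intervals that include 0, and the other intervals lie above 0.

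The second probes of Nfkbia and Nfkbie went the same way. The dimmer Nfkbia probe was higher after IL-33 by 0.85 log2 units (adjusted p = 0.00131), and the dimmer Nfkbie probe was lower by 0.78 (log2 difference -0.78, adjusted p = 0.00108). The WT arrays numbered 2 were those with the highest neutrophil sums after IL-33 and without stimulus. Without the 3 WT arrays numbered 2, the IL-33 minus IgE differences were 1.57 for Nfkbiz, 1.01 for Nfkbia, -1.99 for Nfkbid and -1.01 for Nfkbie, and all 4 passed. Leaving out the second IgE-activated WT array alone gave Nfkbib a difference of -0.31 (adjusted p = 0.0413). Nfkbib passed in this 1 of 17 settings, and did not pass without the 3 WT arrays numbered 2. Its call in this comparison is thus not firm.

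**Figure D4:**
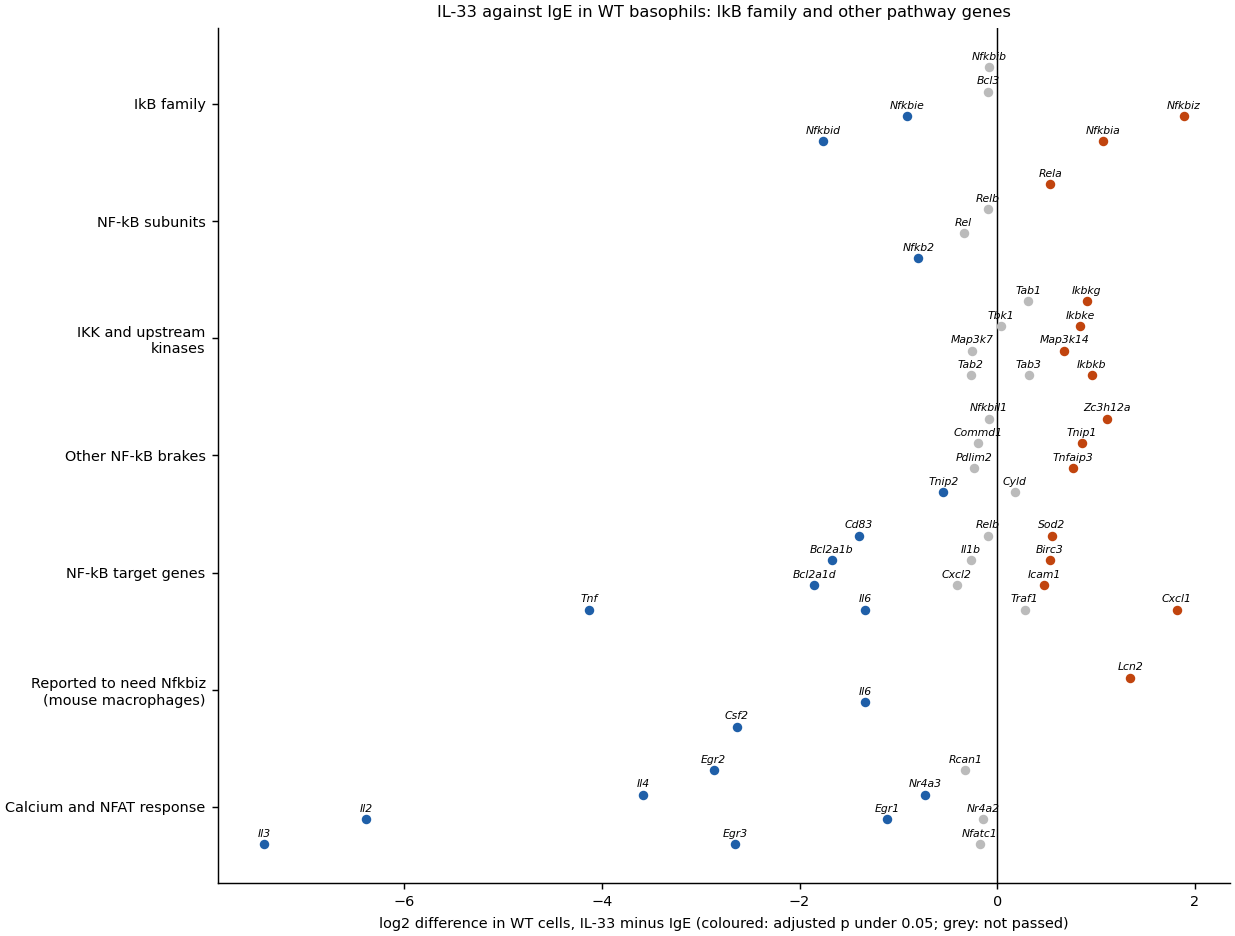
Log2 difference in WT cells, IL-33 minus IgE (horizontal axis), of each tested gene, with a row for the IkB family and for each pathway list; red and blue points passed as higher and lower after IL-33, grey points did not pass, and height within a row only separates labels. In the IkB family row Nfkbia and Nfkbiz lie right of 0 and Nfkbid and Nfkbie left of it. In the calcium and NFAT row (Il2 at its fitted value) 7 genes passed left of 0, beside 21.2% of all genes. In that row 0 passed right of it, beside 21.8%.

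In ST2KO cells IL-33 gave no call in the family. The log2 changes were 0.21 for Nfkbia, 0.09 for Nfkbib, -0.05 for Nfkbie, -0.04 for Nfkbid, -0.04 for Nfkbiz and -0.09 for Bcl3, and IL-33 and unstimulated arrays overlapped for each, whereas they did not overlap in 9.92% of all genes. The 95% intervals allow a Nfkbia change of -0.19 to 0.60 and a Nfkbiz change of -0.58 to 0.50. Of all 9973 genes 0 passed in limma, with 274 at an unadjusted p under 0.05. The lone high neutrophil sum in this group, on the first array, came with Nfkbia at 759, the highest of its group, and Nfkbiz at 250.2, within the range of its group. The same Nfkbia probe was also highest on the first ST2KO array after IgE (3906) and without stimulus (694). Neutrophil sums there were 174 and 298, the lowest of their groups, and the part of neutrophils was not tested.

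The levels after IL-33 were lower in ST2KO than in WT cells. The log2 difference was -3.41 ± 0.19 for Nfkbia, -3.17 ± 0.25 for Nfkbiz, -1.98 ± 0.17 for Bcl3, -1.66 ± 0.17 for Nfkbie, -1.28 ± 0.14 for Nfkbid and -1.20 ± 0.15 for Nfkbib. All 6 passed as lower with adjusted p from 2.30e-09 to 5.12e-05 in limma, beside 3.75% of all genes, and in none did the 2 genotypes overlap, as in 9.49% of genes. The macrophage marker sums were also lower in these ST2KO arrays, 5381 to 6618 against 8407 to 9158 in WT, and their part was not tested. The response itself, the change after IL-33 in ST2KO cells minus that in WT cells, differed for all 6 as well, beside 1.76% of all genes in either direction and 1.58% with a lower response in ST2KO cells. It was -3.42 ± 0.36 log2 units for Nfkbiz, -2.89 ± 0.26 for Nfkbia and -1.78 ± 0.25 for Bcl3. For Nfkbie it was -1.51 ± 0.24, for Nfkbid -1.14 ± 0.20 and for Nfkbib -1.02 ± 0.21, with adjusted p of 0.00134, 0.00359 and 0.0161. The Nfkbib call is the least firm: without the second unstimulated ST2KO array it was -0.95 (adjusted p = 0.0534) and without the second IL-33-stimulated ST2KO array -0.97 (adjusted p = 0.0509).

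Activation through IgE raised all 6 members in ST2KO cells too, beside 22.8% of all genes. The rise was 8.35-fold for Nfkbid, 6.12-fold for Nfkbia, 5.9-fold for Nfkbie, 2.95-fold for Nfkbib, 2.87-fold for Bcl3 and 2.54-fold for Nfkbiz, with adjusted p of 2.87e-04 or lower. Set directly against IgE in ST2KO cells, the levels after IL-33 were lower for all 6, beside 23.5% of genes, with log2 differences of -3.10 for Nfkbid to -1.39 for Nfkbiz. Between IgE-activated ST2KO and WT cells 0 of 6 members passed, and 0.0201% of all genes did. The differences ranged from -0.46 for Bcl3 to 0.18 for Nfkbib, and only Bcl3 had arrays that did not overlap, lower in ST2KO as in 6.28% of genes (adjusted p = 0.506, 95% interval -0.82 to -0.09). The difference in response to IgE between genotypes passed for 0 of 6, the largest being 0.58 ± 0.26 for Nfkbia (95% interval 0.03 to 1.14, adjusted p = 0.982), where the second Nfkbia probe gave 0.10; over all genes 0 passed and 434 had an unadjusted p under 0.05.

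Unstimulated ST2KO and WT cells gave 0 calls in the family and 0 among all genes in limma, with 832 genes at an unadjusted p under 0.05. Nfkbia was lower on all 3 ST2KO arrays than on any WT array, as in 6.36% of genes, by a log2 difference of -0.52 ± 0.19 (95% interval -0.91 to -0.13, adjusted p = 0.553). The second Nfkbia probe overlapped between the genotypes, with a log2 difference of -0.31 (adjusted p = 0.671). Neutrophil marker sums were also lower there, 298 to 472 in ST2KO cells against 952 to 4391 in WT cells, as were macrophage marker sums, 5966 to 6297 against 6911 to 10504, and their part in this difference was not tested. The other 5 members differed by -0.20 to 0.26 log2 units with overlapping arrays.

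Of the 5 NF-kB subunit genes, whose proteins the IkB family binds, 4 were tested. After IL-33 in WT cells 3 of the 4 rose and 0 fell, with a median log2 change of 1.10, and after IgE 3 rose and 1 fell, with a median of 1.57. Relb, a subunit of the alternative pathway that is also counted among the target genes below, rose by 1.82 log2 units after IL-33 and by 1.91 after IgE. Nfkb2, whose precursor itself carries IkB-like ankyrin repeats, rose by 1.30 and by 2.10, and was lower after IL-33 than after IgE (log2 difference -0.80, adjusted p = 1.93e-04). Rel rose by 0.90 after IL-33 and by 1.24 after IgE. Rela, the main transactivating subunit, fell by 0.40 log2 units after IgE and had a change of 0.14 after IL-33 that did not pass.

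Over all genes, 3.01% rose and 0.772% fell after IL-33 in WT cells, and 22.7% rose and 24.3% fell after IgE, which the counts of each list stand beside. Among genes of the IKK complex and of its upstream kinases, 2 of 9 tested rose and 0 fell after IL-33 in WT cells. After IgE, 1 rose and 3 fell. The 9 include the regulatory subunit gene Ikbkg and the adaptor genes Tab1, Tab2 and Tab3, whose products are not kinases. Ikbke, an IKK-related kinase, rose 8.02-fold after IL-33 and 4.47-fold after IgE, and stood 0.84 log2 units higher after IL-33 (adjusted p = 2.24e-04). Ikbkb, the IKK subunit that phosphorylates the classical inhibitors, rose by 0.89 after IL-33 and changed by -0.06 after IgE, a difference of 0.96 (adjusted p = 5.18e-04). Map3k14 and Ikbkg fell after IgE, by 0.92 and 0.62 log2 units.

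Among 8 tested brakes of NF-kB outside the family, 3 rose after IL-33 in WT cells and 4 after IgE, and 0 fell after either. Zc3h12a, an RNase that degrades inflammatory mRNAs, rose by 2.60 log2 units after IL-33 and by 1.48 after IgE. Tnfaip3, which encodes the ubiquitin editor A20, rose by 1.63 and by 0.87, and its partner Tnip1 by 1.34 and by 0.49. All 3 stood higher after IL-33 than after IgE, by 1.11, 0.77 and 0.85 log2 units, and Tnip2 stood lower (log2 difference -0.55). In 3 of the 8 the response to IL-33 was lower in ST2KO than in WT cells, beside 1.58% of all genes.

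Of 13 NF-kB target genes, 10 rose after IL-33 and 11 after IgE in WT cells, with median log2 changes of 1.84 and 2.24. IL-33 against IgE gave 4 higher and 5 lower, beside 21.8% and 21.2% of all genes. The chemokine gene Cxcl2 rose by 4.25 log2 units after IL-33 and 4.66 after IgE, while Tnf was lower after IL-33 than after IgE (log2 difference -4.13, adjusted p = 2.64e-06). Bcl2a1d, a gene of the anti-apoptotic A1 family with close copies, was also lower (log2 difference -1.85). Cxcl1 went the other way, 1.82 higher after IL-33 (adjusted p = 0.00334). After IL-33, 12 of the 13 were lower in ST2KO than in WT cells, beside 3.75% of all genes. For 7 of the 13 the response to IL-33 was lower, beside 1.58%.

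Of 5 genes reported to need Nfkbiz in mouse macrophages 3 were tested. All 3 rose after IL-33 in WT cells (Lcn2 by 1.63 log2 units, Csf2 by 3.36 and Il6 by 2.85), beside 3.01% of all genes. After IgE Csf2 rose by 5.99 log2 units and Il6 by 4.19, beside 22.7% of genes, and the Lcn2 change of 0.29 did not pass. The 3 divided by the stimulus after which they stood higher. Lcn2, an iron-siderophore-binding protein gene, stood 1.35 log2 units higher after IL-33 than after IgE in WT cells (adjusted p = 0.00207), as Nfkbiz did. Csf2 and Il6 encode the cytokines GM-CSF and interleukin-6, and Il6 is also counted among the targets above. Both were lower after IL-33 than after IgE (log2 differences -2.64 and -1.34), as Nfkbid and Nfkbie were. Lcn2 is also abundant in neutrophils, whose marker sums in the IL-33-stimulated WT arrays were 895, 4984 and 343, and their part was not tested.

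Among genes of the calcium and NFAT response, 7 of 10 tested rose after IgE in WT cells with a median log2 change of 1.99, and 1 rose after IL-33 with a median of 0.07. The 1 gene was Egr2, a zinc finger factor induced by calcium, at 1.97 log2 units after IL-33 and 4.84 after IgE. Il4, a type 2 cytokine of basophils, changed by 0.14 after IL-33, which did not pass, and rose by 3.72 after IgE. Il3, above background on 1 of 3 unstimulated WT arrays and so without a well measured starting level, was fitted at 7.51 after IgE. Il2, not well above background in unstimulated or IL-33-stimulated WT cells, rose after IgE by at least 67.6-fold. In IL-33 against IgE 7 of the 10 were lower and 0 higher, beside 21.2% and 21.8% of all genes.

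Across the 18 arrays, the member pair with the most similar levels was Nfkbie and Nfkbid (Pearson r = 0.974) and the least similar was Nfkbid and Nfkbiz (r = 0.526). Nfkbia and Nfkbiz correlated at 0.920, and Nfkbie and Nfkbiz at 0.648. These are descriptions over arrays that share the 6 groups of genotype and stimulus. By the same measure over 9972 other genes, the levels most like those of Nfkbia belonged to the adhesion gene Icam1 (r = 0.986), the death receptor gene Fas (0.985) and Gimap6 (0.980). For Nfkbiz they were Cdk5r1 (0.974), the RNase gene Zc3h12a (0.970) and Plat (0.966), the gene of tissue plasminogen activator. Nfkbie was most like the cytokine gene Csf2 (0.990), Ier3 (0.987) and the cytokine gene Il1a (0.986). Among the nearest to Nfkbid were Bcl2l1, an inhibitor of apoptosis (0.993), and Ttc19 (0.993). Nfkbib was nearest to Stx6 (0.976), Il6 (0.973) and Cxcl2 (0.967), and Bcl3 to Cxcl2 (0.970), Fas (0.970) and Cxcl16 (0.966).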

How the data were processed

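The authors deposited, per the file headers, an average signal (intensity) and a detection p-value for each of 45281 probes on each of 18 arrays; the signals had not been normalized and their lowest values of 76.2 to 83.7 show that background had not been subtracted. The authors' processed values, deposited separately on a log2 scale, had a median of 4.29 on the first unstimulated WT array. On every array they had the same rank order as the signals. Their centring is unknown. No source used here gives the other upstream steps. The design also names mast cells, which were not analysed here.

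Signals were background-corrected and quantile-normalized with neqc (limma 3.58.1, R 4.3.3, offset 16, which compresses changes of dim probes). Probes detected at p under 0.05 on at least 3 arrays were kept, 18078 of 45281. Of all probes 34885 had 1 gene symbol, 18 several and 10378 none. The brightest kept probe stood for each of 9973 genes. Group means were fitted to all 18 arrays with lmFit and eBayes for 11 contrasts, with Benjamini-Hochberg adjustment over all genes and a threshold of 0.05. A gene not well above background in a whole group has a fold given as a lower bound. Precision is limited by the number of arrays: the median half-width of a 95% interval was 0.316 log2 units between 2 groups and 0.447 for a difference of responses. On simulated data with 200 changed genes the fit recovered 86% at a log2 change of 1 and 99% at 2, with 8 false calls. The simulated noise was independent between arrays, whereas same-number arrays of the WT groups shared deviations, as given below. These figures are therefore not error rates of the real data.

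Members and lists were chosen with earlier results of these data known. The text names every member, the 3 largest passing changes of each pathway list, and the 3 genes most correlated with each member, of which 1 is not reported here; Tnip2 was named after its value was seen. Promoter sequences are from RefSeq (GRCm38.p6). The reported fit did not pair arrays by replicate number. As a check, 2 groups met a rule for pairing where all same-number correlations of deviations from group means exceeded 0.1. These were 0.135 to 0.591 in each pair of WT groups, and 0.119 to 0.206 between IgE-activated and unstimulated ST2KO cells. The other ST2KO pairs and samples of different genotypes missed this rule. Unstimulated ST2KO and WT cells missed it narrowly, at 0.0925 to 0.147. Samples of different numbers were not compared, so pairing was not established. Alternatives tried were other normalizations, no filter, the mean of all probes, other estimates of spread, the replicate block, and leaving out arrays.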

Additional observations from a re-analysis of the deposited data

Results flagged for a closer look

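The response to IL-33 differed between genotypes for each of the 6 members, tested in limma as the change in ST2KO cells minus the change in WT cells with adjustment over all genes. The differences were -3.42 log2 units for Nfkbiz (adjusted p = 2.00e-05), -2.89 for Nfkbia (adjusted p = 3.98e-06) and -1.78 for Bcl3 (adjusted p = 3.66e-04). They were -1.51 for Nfkbie (adjusted p = 0.00134), -1.14 for Nfkbid (adjusted p = 0.00359) and -1.02 for Nfkbib (adjusted p = 0.0161). Among all genes 1.76% differed in this test, in either direction.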

How the results depend on the processing

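Of 1158 values of members under the alternatives, 1155 kept their side of the threshold, 2 lost their call and 1 gained a call. Of the values that passed in either setting 0 reversed. Among the 1155 were 31 values that passed in neither setting and changed sign. The changes of call all concerned Nfkbib. Its IL-33 response difference ranged from -1.09 to -0.936 over single arrays left out, and lost its call without the second unstimulated (-0.946) or second IL-33-stimulated (-0.972) ST2KO array. Its IL-33 minus IgE difference in WT cells ranged from -0.314 to 0.0612, and passed without the second IgE-activated WT array (-0.314). Without background correction the dim members shrank with calls kept: in ST2KO cells the rise after IgE was 0.62 for Bcl3, 0.72 for Nfkbib and 1.94 for Nfkbie, and ST2KO minus WT after IL-33 was -0.85 for Bcl3 and -0.54 for Nfkbib.

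Counts over all genes moved more. With array weights, 641 genes passed for IL-33 in WT cells (377 in the analysis reported), 1347 for ST2KO against WT after IL-33 (605) and 300 for the difference in IL-33 response (176). Fitting only the groups compared gave 197 for IL-33 in WT cells. The 2 genes of ST2KO against WT after IgE became 0 with the authors' values, median scaling, trend and robust, array weights, only the groups compared or without the 3 WT arrays numbered 2, and 4 without the filter. Over single arrays left out, counts were 284 to 399 for IL-33 in WT cells, 357 to 458 for ST2KO against WT after IL-33, 0 to 14 after IgE, and 138 to 190 for the response difference. The cause of these shifts was not tested. With the replicate block within genotype, 480 genes passed for IL-33 in WT cells, 4593 for IL-33 against IgE and 215 for the response difference, and no member's call changed.

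Limits: Bcl3, Nfkbib and the second Nfkbie probe lie near background, where the offset compresses changes. RNA levels at a single time do not show protein, and with 3 arrays per group the 95% interval of a difference between groups reached from 0.30 log2 units to either side for Nfkbid to 0.54 for Nfkbiz.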
